A study of Homo sapiens with 8 samples.

Results

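A set of 7 microRNAs (miRNAs) from the miR-34a, miR-192, miR-194, miR-215 and miR-107 group was followed across HCT116 libraries with different DICER variants. The 7 were taken by name: miR-34a-5p and miR-34a-3p, miR-192-5p, miR-194-5p, miR-215-5p, miR-107, and miR-103a-3p as the paralogue of miR-107. They are 7 of the 1818 mature miRNA names listed in at least 1 library, and a name not listed in a library was set to 0 reads there. HCT116 is a human colorectal carcinoma cell line. The 4 groups were HCT116 cells rescued with R1855L DICER, with R821H DICER, with R1003Q DICER or with wild-type (WT) DICER, with 2 libraries each. The labels name no other treatment and do not give the state of the cells' own DICER gene, the vector or whether a group is 1 clone. Whether the 2 libraries of a group started from separate cultures is not stated, so the p-values below speak of library-to-library spread, part of which may be technical.

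DICER is the ribonuclease that cuts a precursor hairpin into a short duplex. Its cuts set the 3′ end of the 5p strand and the 5′ end of the 3p strand, and 1 strand of the duplex is usually kept as the guide while the other is mostly lost. R1855L lies in the double-stranded RNA-binding domain at the C terminus of DICER, and R821H and R1003Q lie in the platform and PAZ region that holds the ends of the precursor. miR-34a-5p represses cell cycle and survival genes such as CDK6, MET and BCL2. miR-192, miR-194 and miR-215 come from a pair of paralogous clusters and are abundant in intestinal and liver epithelium. miR-107 shares its seed with miR-103a, and both lie in introns of pantothenate kinase genes.

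The mature sequences are shown because they set which members can share targets and which can share reads. All 7 members matched a RefSeq entry on GRCh38.p14, and the capitals mark the seed, bases 2 to 8 from the 5′ end, the stretch that does most of the pairing with a target.
hsa-miR-34a-5p: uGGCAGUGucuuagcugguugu
hsa-miR-34a-3p: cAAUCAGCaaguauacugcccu
hsa-miR-103a-3p: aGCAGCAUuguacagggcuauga
hsa-miR-107: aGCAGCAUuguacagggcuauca
hsa-miR-192-5p: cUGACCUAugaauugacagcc
hsa-miR-215-5p: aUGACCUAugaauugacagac
hsa-miR-194-5p: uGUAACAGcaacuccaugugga
The 7 sequences hold 5 distinct seeds. miR-103a-3p and miR-107 share GCAGCAU and are identical at 22 of 23 bases, with the single difference G22C (the miR-103a-3p base, its position from the 5′ end, then the miR-107 base). miR-192-5p and miR-215-5p share UGACCUA and are identical at 19 of 21 bases, with C1A and C20A counted from miR-192-5p. In the same RefSeq table the seed GGCAGUG of miR-34a-5p was also carried by miR-449a, at 94.1 normalised CPM in WT, and by miR-449b-5p, at 20.9 CPM in WT. The miR-34 family member miR-34c-5p, which stood at 41.0 CPM in WT, is also known to carry this seed. The 2 strands of MIR34A do not share a seed.

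The hairpins are shown because DICER makes the loop-side cuts on both strands, and the strand ratios further on compare the products of those cuts. Capitals mark the mature strands that RefSeq annotates.
MIR34A: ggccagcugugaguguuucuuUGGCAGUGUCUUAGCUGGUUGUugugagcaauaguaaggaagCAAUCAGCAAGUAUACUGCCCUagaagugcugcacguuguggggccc
MIR103A1: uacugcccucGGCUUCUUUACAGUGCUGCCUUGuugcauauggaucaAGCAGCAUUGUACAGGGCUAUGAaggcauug
MIR103A2: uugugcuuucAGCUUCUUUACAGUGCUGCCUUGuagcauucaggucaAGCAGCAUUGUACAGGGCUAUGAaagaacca
MIR107: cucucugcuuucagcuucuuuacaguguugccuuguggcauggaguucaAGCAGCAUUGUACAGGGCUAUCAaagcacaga
MIR34A lies at chr1:9151668-9151777 on the minus strand, in an exon of the non-coding host MIR34AHG, and 20 bases separate its mature strands. MIR103A1 (chr5:168560896-168560973, minus strand) lies in an intron of PANK3 and MIR103A2 (chr20:3917494-3917571, plus strand) in an intron of PANK2. Both carry the same miR-103a-3p sequence, 14 bases from the 5p strand, so a read of that strand cannot be assigned to 1 hairpin. MIR107 (chr10:89592747-89592827, minus strand) lies in an intron of PANK1, and RefSeq annotates only its 3p-side product.

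MIR192 (chr11:64891137-64891246) and MIR194-2 (chr11:64891355-64891439) lie beside each other on the minus strand in an exon of MIR194-2HG. MIR215 (chr1:220117853-220117962) and MIR194-1 (chr1:220118157-220118241) form the paralogous pair, in an intron of IARS2 on its opposite strand. MIR194-1 and MIR194-2 give the same miR-194-5p, so its reads cannot be assigned to 1 cluster either. Coordinates are from RefSeq on GRCh38.p14, and host genes from GENCODE release 29.

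Library totals were 2241881 and 462805 reads in R1855L, 3340304 and 841857 in R821H, 1143373 and 675934 in R1003Q, and 1137858 and 4269231 in WT (replicates 1 and 2). R1855L replicate 1, R821H replicate 1 and WT replicate 2 are called deep here and the other 5 shallow. With group in the model, 36.5% of the 625 miRNAs tested differed between deep and shallow libraries (edgeR adjusted p under 0.05), among them 3 of the 6 members tested. The limit that 0 reads set, taken as 3 reads, lay between 0.703 CPM for the deepest and 6.48 CPM for the shallowest library. All 8 miRNAs of the epithelial marker list, which includes miR-192-5p and miR-194-5p, had reads, and their summed level was 3784 and 3449 CPM in R1855L, 4836 and 4309 in R821H, 3988 and 4193 in R1003Q, and 4341 and 5008 in WT. The summed blood markers ran from 463 to 621 CPM, fibroblast markers from 635 to 820 CPM, neuron markers from 454 to 1184 CPM, the liver marker miR-122-5p from 67.3 to 118 CPM and muscle markers from 3.64 to 11.8 CPM over the 8 libraries. The blood marker miR-155-5p was at 0 in all libraries but R821H replicate 2, and the muscle markers miR-1-3p and miR-206 were at 0 in most. The neuron marker miR-124-3p was at 1.84 CPM or less, so the neuron sum was nearly all miR-9-5p. Most of the fibroblast sum was miR-145-5p, at 561 to 757 CPM, with miR-214-3p at 5.95 CPM or less. All 8 libraries are from the HCT116 line. In bulk RNA, fewer cells holding a miRNA and less of it per cell cannot be told apart.

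miR-34a-5p was, with miR-103a-3p, 1 of the 2 most abundant members in each group. Levels are given as CPM after TMM scaling (reads scaled to a common library total, corrected for composition), with 1 read standing for 1 mature strand, so levels of strands of 21 to 23 bases are set side by side without a length correction. miR-34a-5p was at 3589 and 2051 CPM in R1855L, at 5026 and 4952 CPM in R821H, at 4894 and 4092 CPM in R1003Q, and at 3534 and 4763 CPM in WT. The lowest library was the shallow R1855L one, while the deep R1855L library lay just above the shallow WT library, so R1855L and WT overlapped. In order of the means, R821H (4989 ± 52.3 CPM, SD, n = 2) was followed by R1003Q (4493 ± 567), WT (4148 ± 869) and R1855L (2820 ± 1088), and no neighbours in that order differed by the test. The strand took between 0.241% of all reads (exact Clopper-Pearson 95% interval 0.227 to 0.256, R1855L replicate 2) and 0.495% (0.480 to 0.510, R821H replicate 2), intervals that cover counting error only.

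miR-34a-3p, the strand that is mostly lost, was far less abundant than its partner. It was at 178 and 97.4 CPM in R1855L, at 145 and 70.2 CPM in R821H, at 73.2 and 54.0 CPM in R1003Q, and at 81.9 and 187 CPM in WT. Its 3 highest values were those of the 3 deep libraries, which stood 1.04 log2 units above the shallow ones with group in the model (SE 0.19, edgeR adjusted p = 7.90e-05). miR-34a-5p was 0.42 log2 units higher in the deep libraries (SE 0.15, edgeR adjusted p = 0.0313). Both R1003Q libraries are shallow, so for this strand R1003Q has no deep library to set beside the deep WT library.

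**Figure D1:**
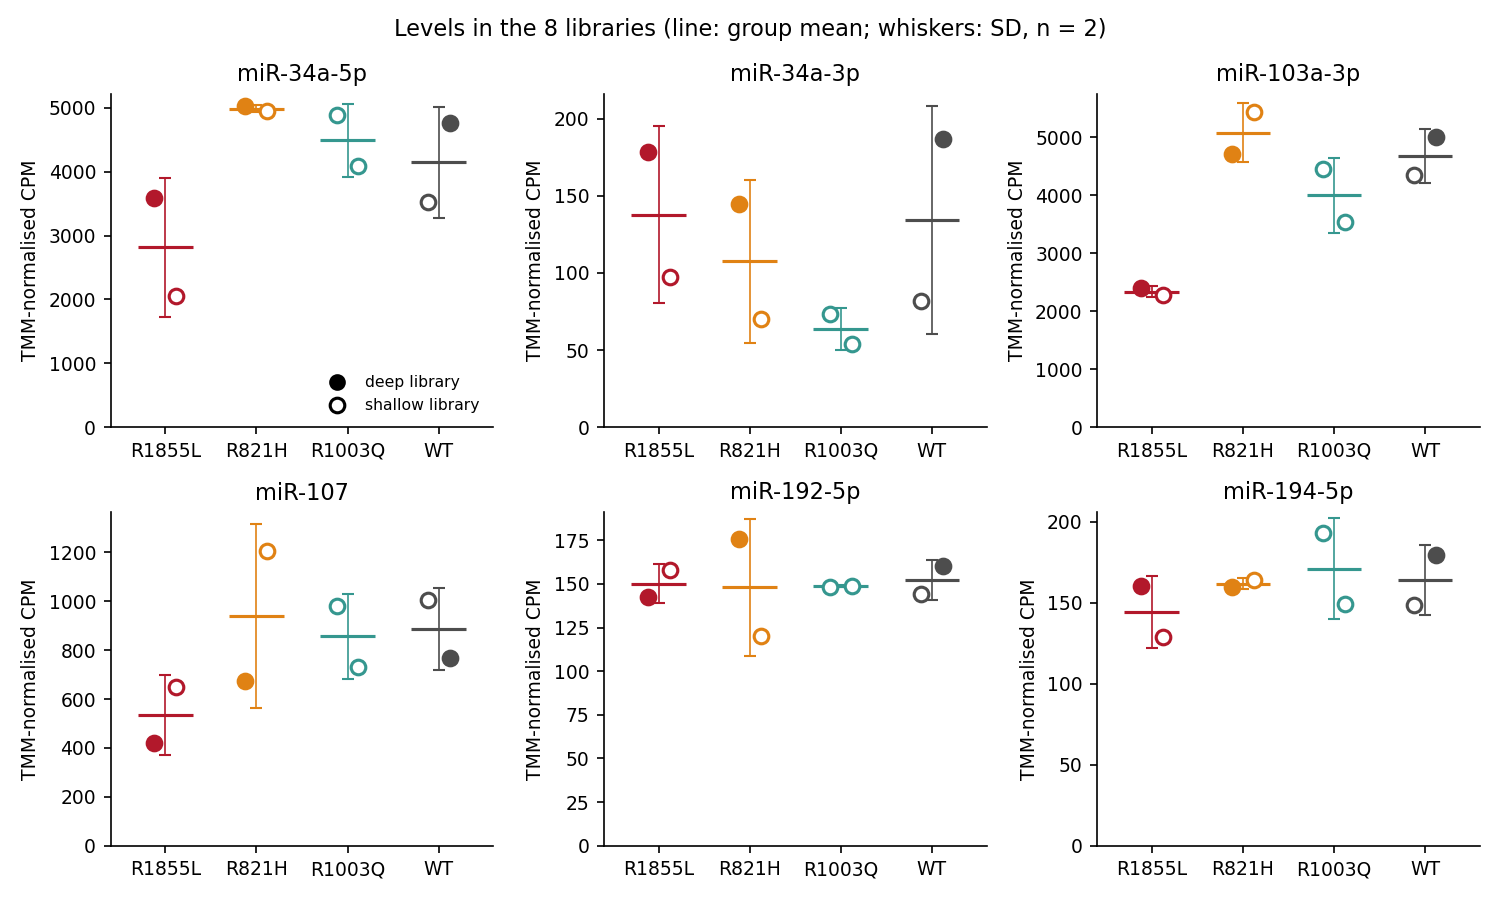
Normalised level (TMM-scaled CPM, linear axis from 0) of the 6 members that passed the low-count filter in each library; filled points are deep and open points shallow libraries, lines are group means and whiskers SD (n = 2). Both R1855L libraries (2400 and 2275 CPM) sit below every other library for miR-103a-3p, while the miR-192-5p and miR-194-5p points of all groups overlap. How many of all miRNAs have R1855L below every other library was not counted.

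miR-103a-3p, the most abundant member in WT, was lower in R1855L than in any other group. It was at 2400 and 2275 CPM in R1855L, at 4717 and 5438 CPM in R821H, at 4459 and 3538 CPM in R1003Q, and at 4346 and 4999 CPM in WT. The 2 R1855L libraries lay close together and below all 6 others. The means were 2338 ± 88.8 CPM in R1855L, 5078 ± 510 in R821H, 3998 ± 651 in R1003Q and 4673 ± 462 in WT (SD, n = 2 each), and no neighbours in the order R821H, WT, R1003Q and R1855L differed by the test. No depth difference was called for this strand, with 0.02 log2 units between deep and shallow libraries (SE 0.14).

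miR-107 was at 420 and 650 CPM in R1855L, at 673 and 1207 CPM in R821H, at 980 and 733 CPM in R1003Q, and at 1006 and 767 CPM in WT. Both R1855L libraries were below all other libraries and the other groups overlapped, with the R821H replicates far apart. An R1855L level below all other libraries was not counted over all miRNAs. The 3 deep libraries were each the lower one of their group. miR-107 stood 0.62 log2 units lower in deep libraries with group in the model (SE 0.15, edgeR adjusted p = 0.00215), the opposite direction from miR-34a-3p. The means were 535 ± 163 CPM in R1855L, 940 ± 378 in R821H, 856 ± 175 in R1003Q and 886 ± 169 in WT (SD, n = 2 each).

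R1855L against WT asks how the substitution in the C-terminal RNA-binding domain bears on these miRNAs. Of the 6 members tested, 0 were called at an adjusted p under 0.05, against 5.76% of all 625 miRNAs, and 1 of the 6 had an unadjusted p under 0.05, against 18.4% of all. That member was miR-103a-3p, with a log2 fold change of -0.999 (SE 0.25, 95% interval -1.57 to -0.42, edgeR adjusted p = 0.0667), a level about 2.00-fold lower in R1855L. DESeq2 called it (log2 -1.02, SE 0.25, adjusted p = 0.00120) as its only member, against 8.32% of all. miR-107 had a log2 fold change of -0.73 (SE 0.37, edgeR adjusted p = 0.357) and miR-34a-5p one of -0.56 (SE 0.33, edgeR adjusted p = 0.415). For 2 of the 6 members, miR-103a-3p and miR-107, the R1855L libraries lay below both WT libraries, against 21.4% of all miRNAs tested.

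The other tested members stood close to WT in R1855L. The log2 fold change was 0.05 for miR-34a-3p (SE 0.52, 95% interval -1.17 to 1.26), -0.02 for miR-192-5p (SE 0.27, -0.65 to 0.60) and -0.18 for miR-194-5p (SE 0.26, -0.79 to 0.43). The interval was widest for miR-34a-3p. Over the 6 members the median log2 fold change was -0.37, beside 0.13 over all 625 miRNAs.

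**Figure D2:**
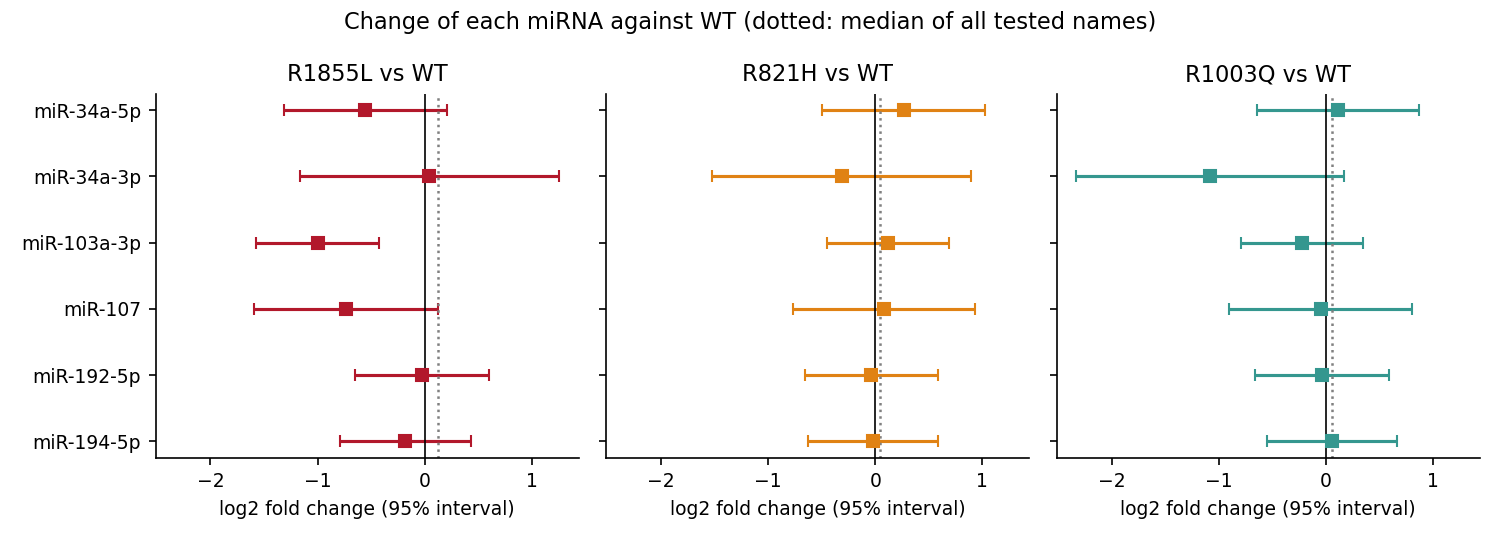
Log2 fold change of each tested member against WT with its 95% interval (edgeR, x axis in log2 units), for R1855L, R821H and R1003Q; the solid line marks no change and the dotted line the median of all 625 miRNAs (0.13, 0.04 and 0.06). Only the miR-103a-3p interval in R1855L (-1.57 to -0.42) lies wholly on 1 side of 0.

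Because both R1855L and WT have 1 deep and 1 shallow library, the R1855L ratios were also taken within each depth class, where no replicates remain. miR-103a-3p had a log2 ratio of R1855L to WT of -1.06 in the deep pair and -0.93 in the shallow pair, and miR-107 had -0.87 and -0.63. For miR-34a-5p the ratios were -0.41 and -0.79. The 3 strands were therefore lower in R1855L at both depths. miR-194-5p had -0.16 and -0.21, whereas miR-192-5p (-0.17 and 0.13) and miR-34a-3p (-0.07 and 0.25) changed sign between the classes. With the depth class as a term in the model, 3 of the 6 members fell in R1855L, against 28.3% of all miRNAs called in either direction and 16.6% called lower: miR-103a-3p (log2 -0.999, SE 0.18, edgeR adjusted p = 8.18e-05), miR-107 (-0.75, SE 0.19, adjusted p = 0.00321) and miR-34a-5p (-0.58, SE 0.18, adjusted p = 0.0180). With the log2 library total in its place, miR-103a-3p and miR-107 passed (adjusted p = 0.00289 and 0.00457) and miR-34a-5p did not (-0.35, SE 0.21, adjusted p = 0.244), against 25.9% of all miRNAs called.

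**Figure D3:**
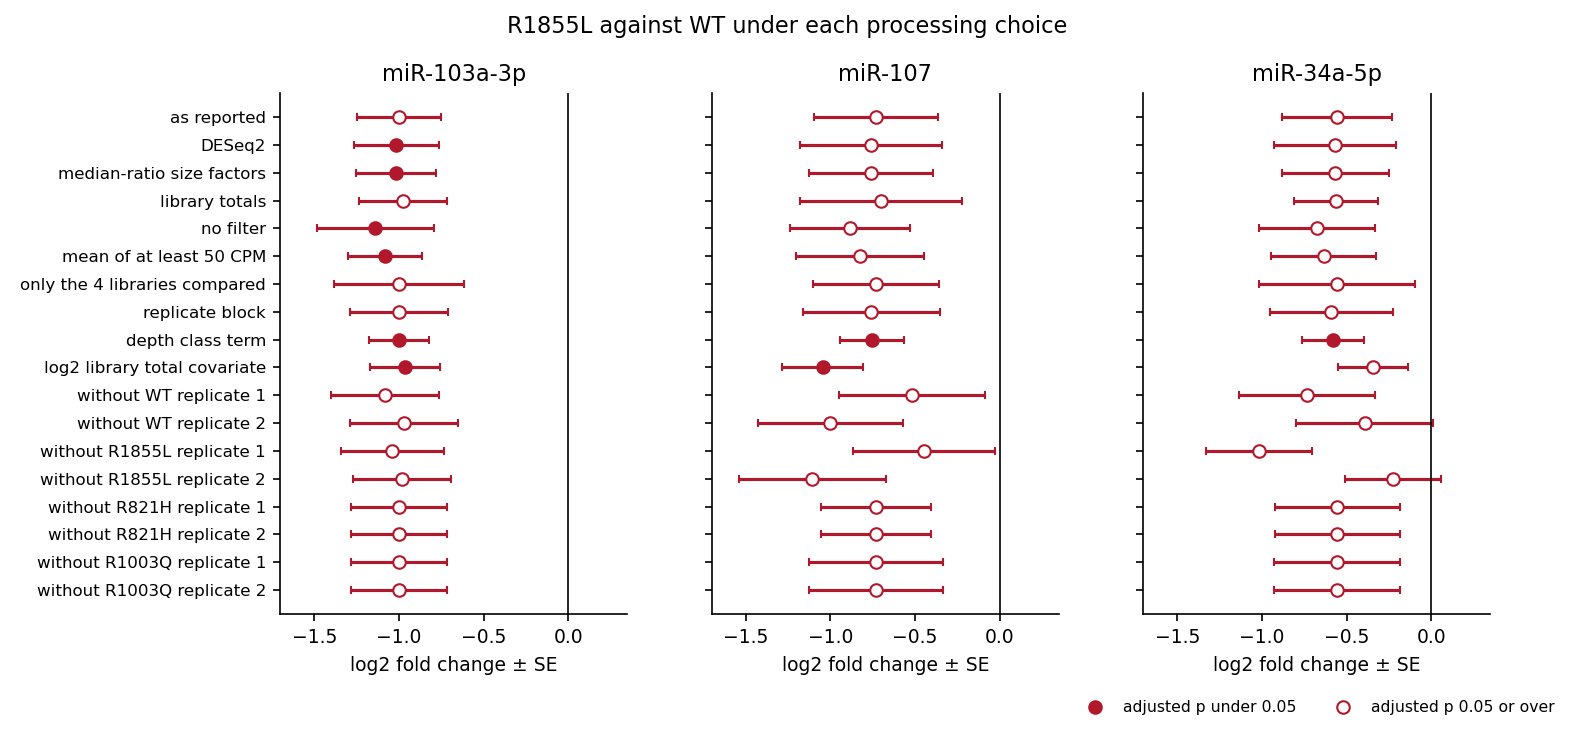
Log2 fold change with SE of R1855L against WT for miR-103a-3p, miR-107 and miR-34a-5p under the reported fit and each of the 17 other settings; filled points have an adjusted p under 0.05. Every point lies below 0, miR-103a-3p between -1.14 and -0.96, and its call is made under 6 of the 17 settings.

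miR-192-5p and miR-194-5p, the intestinal pair, were at nearly the same low level in every group. miR-192-5p was at 142 and 158 CPM in R1855L, at 176 and 120 CPM in R821H, at 148 and 149 CPM in R1003Q, and at 144 and 160 CPM in WT. miR-194-5p was at 160 and 129 CPM in R1855L, at 159 and 164 CPM in R821H, at 193 and 149 CPM in R1003Q, and at 149 and 179 CPM in WT. The 2 R821H libraries held both the highest and the lowest miR-192-5p value, and no group stood apart for either strand. Both rest on modest counts, from 86 to 617 reads per library for miR-192-5p and from 70.5 to 689.5 for miR-194-5p.

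miR-215-5p, which shares the miR-192-5p seed, was at the edge of detection and did not pass the low-count filter. It had 4 and 0 reads in R1855L, 2 and 0 in R821H, 3 and 5 in R1003Q, and 5 and 5 in WT, 24 reads in all. The 2 libraries with 0 reads allow up to 6.48 CPM (R1855L replicate 2) and 3.56 CPM (R821H replicate 2), without TMM scaling. A difference between groups was not detectable at this depth. miR-192-5p thus carried most of the reads with this seed, with 2071 reads over the 8 libraries.

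R821H and R1003Q were each set against the same 2 WT libraries, which the R1855L comparison also uses. In R821H, 0 of the 6 members were called, as were 0% of all miRNAs (edgeR), and 0 of the 6 had an unadjusted p under 0.05, against 3.2% of all (20 miRNAs). DESeq2 called 1 miRNA in all (0.16%), which was not a member. The log2 fold changes ran from -0.31 for miR-34a-3p (SE 0.52) to 0.27 for miR-34a-5p (SE 0.33), each with an edgeR adjusted p of 0.994. For miR-34a-5p both R821H libraries lay above both WT libraries, 1 of the 6 members against 15.4% of all miRNAs. miR-103a-3p stood at 0.12 (SE 0.24, 95% interval -0.45 to 0.69) and miR-107 at 0.08 (SE 0.36, -0.77 to 0.93).

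In R1003Q, 0 of the 6 members were called against WT, as were 0% of all miRNAs (edgeR; DESeq2 also called 0), and 0 of the 6 had an unadjusted p under 0.05, against 4.96% of all (31 miRNAs). miR-34a-3p had the lowest log2 fold change, -1.08 (SE 0.54, 95% interval -2.33 to 0.17, edgeR adjusted p = 0.857), with both R1003Q libraries below both WT libraries, 1 of the 6 members against 17.8% of all. Against the shallow WT library alone the log2 ratio was -0.37, and with the depth class in the model the log2 fold change was -0.43 (SE 0.27, edgeR adjusted p = 0.520). The other 5 members ran from -0.22 for miR-103a-3p (SE 0.24) to 0.11 for miR-34a-5p (SE 0.33). The median over the 6 members was 0.03 in R821H and -0.04 in R1003Q, beside 0.04 and 0.06 over all 625 miRNAs.

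Between the mutants, the 3 members with the lowest fold changes in R1855L against WT stood higher in both other mutants. They were picked for low values in the same R1855L libraries, so this direction was set in part by the choice. In R821H against R1855L, 0 of the 6 members were called, against 3.84% of all miRNAs, and 2 had an unadjusted p under 0.05, against 14.9% of all. miR-103a-3p was at a log2 fold change of 1.12 (SE 0.25, 95% interval 0.54 to 1.69, edgeR adjusted p = 0.0531), miR-34a-5p at 0.82 (SE 0.33, adjusted p = 0.285) and miR-107 at 0.81 (SE 0.37, adjusted p = 0.367). Those 3 of 6 members had both R821H libraries above both R1855L libraries, against 20.6% of all. miR-34a-3p was at -0.36 (SE 0.52), miR-194-5p at 0.16 (SE 0.26) and miR-192-5p at -0.01 (SE 0.27). With the depth class in the model, miR-103a-3p, miR-107 and miR-34a-5p were called, against 18.2% of all miRNAs.

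In R1003Q against R1855L, 0 of the 6 members were called, against 3.68% of all, and 1 had an unadjusted p under 0.05, against 14.7% of all. miR-103a-3p was at 0.77 (SE 0.25, edgeR adjusted p = 0.169), miR-107 at 0.68 (SE 0.37, adjusted p = 0.449) and miR-34a-5p at 0.67 (SE 0.33, adjusted p = 0.394), each with both R1003Q libraries above both R1855L libraries, 3 of 6 against 24.3% of all. miR-34a-3p stood farthest from R1855L and in the other direction, at -1.13 (SE 0.54, 95% interval -2.39 to 0.14, edgeR adjusted p = 0.391), with both R1003Q libraries below both R1855L libraries, 1 of 6 against 20.6% of all. miR-194-5p was at 0.24 (SE 0.26) and miR-192-5p at -0.01 (SE 0.27). With the depth class in the model, miR-103a-3p and miR-34a-5p were called, against 14.9% of all. In R1003Q against R821H, 0 of the 6 were called, as were 0% of all miRNAs (edgeR; DESeq2 also called 0), and 0 had an unadjusted p under 0.05, against 1.6% of all (10 miRNAs). For miR-34a-5p and miR-103a-3p both R1003Q libraries lay below both R821H libraries, 2 of the 6 members against 16.8% of all. These comparisons share the R1855L libraries with each other and with R1855L against WT.

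The balance between the 2 strands of a hairpin does not move with library scaling, and was compared as the log2 of 5p reads over 3p reads; 0.5 was first added to both counts. miR-34a gave 20.1 and 20.9 5p reads per 3p read in R1855L, 34.7 and 70.0 in R821H, 66.4 and 74.9 in R1003Q, and 42.9 and 25.5 in WT. The R1855L libraries had the 2 lowest ratios, and the 3 highest were shallow R821H and R1003Q libraries. How many of all strand pairs have both R1855L libraries at an extreme was not counted, for miR-34a or for the hairpins below. Within each of the 3 groups that have both depths the shallow library had the higher ratio, by a wide margin in R821H and WT.

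By limma over 174 strand pairs, the difference from WT was -0.69 in R1855L (SE 0.45, adjusted p = 0.506), 0.57 in R821H (SE 0.45, adjusted p = 0.888) and 1.09 in R1003Q (SE 0.45, adjusted p = 0.759). None passed, against 8.05% of pairs called in R1855L and 0% in both R821H and R1003Q. R1003Q against R1855L, a comparison chosen after its values were seen, gave 1.78 (SE 0.45, 95% interval 0.76 to 2.81, limma adjusted p = 0.0547), against 5.75% of pairs called. It passed with the depth class in the model (1.48, SE 0.33, adjusted p = 0.000204), where 15.5% of pairs were called, and with a minimum of 400 reads per strand (adjusted p = 0.0435), where 11.8% of 110 pairs were called. R821H against R1855L gave 1.27 (SE 0.45, limma adjusted p = 0.157), against 8.05% of pairs called, and passed with the depth class in the model (adjusted p = 0.000446), where 20.7% of pairs were called.

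The guide of miR-103a is the 3p strand. The pairing of miR-103a-3p with miR-103a-2-5p, the 5p strand of MIR103A2, was added after the data were seen, and its 3p reads cannot be assigned to 1 of the 2 hairpins. The 5p strand of MIR103A1, miR-103a-1-5p, was not listed in any library. miR-103a gave 20.2 and 14.8 3p reads per 5p read in R1855L, 47.0 and 55.4 in R821H, 36.3 and 33.0 in R1003Q, and 39.9 and 54.8 in WT. Both R1855L ratios lay below the other 6, an order that was not counted over all strand pairs. The 5p strand itself was at 119 and 153 CPM in R1855L, at 100 and 97.5 CPM in R821H, at 122 and 106 CPM in R1003Q, and at 108 and 91.2 CPM in WT, a log2 fold change of 0.44 in R1855L against WT (SE 0.26, edgeR adjusted p = 0.417).

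The miR-103a ratio was shifted toward the 5p strand in R1855L by 1.44 log2 units relative to WT (SE 0.36, limma adjusted p = 0.0440 over 175 pairs), against 9.14% of pairs called. The shift was also called with the depth class in the model (adjusted p = 4.52e-05), where 18.9% of pairs were called. It was not called when any 1 of the 8 libraries was left out, with shifts of 1.21 to 1.66 and adjusted p of 0.0515 to 0.179. In R821H the difference from WT was -0.13 (SE 0.36, adjusted p = 0.989) and in R1003Q 0.43 (SE 0.36, adjusted p = 0.809).

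**Figure D4:**
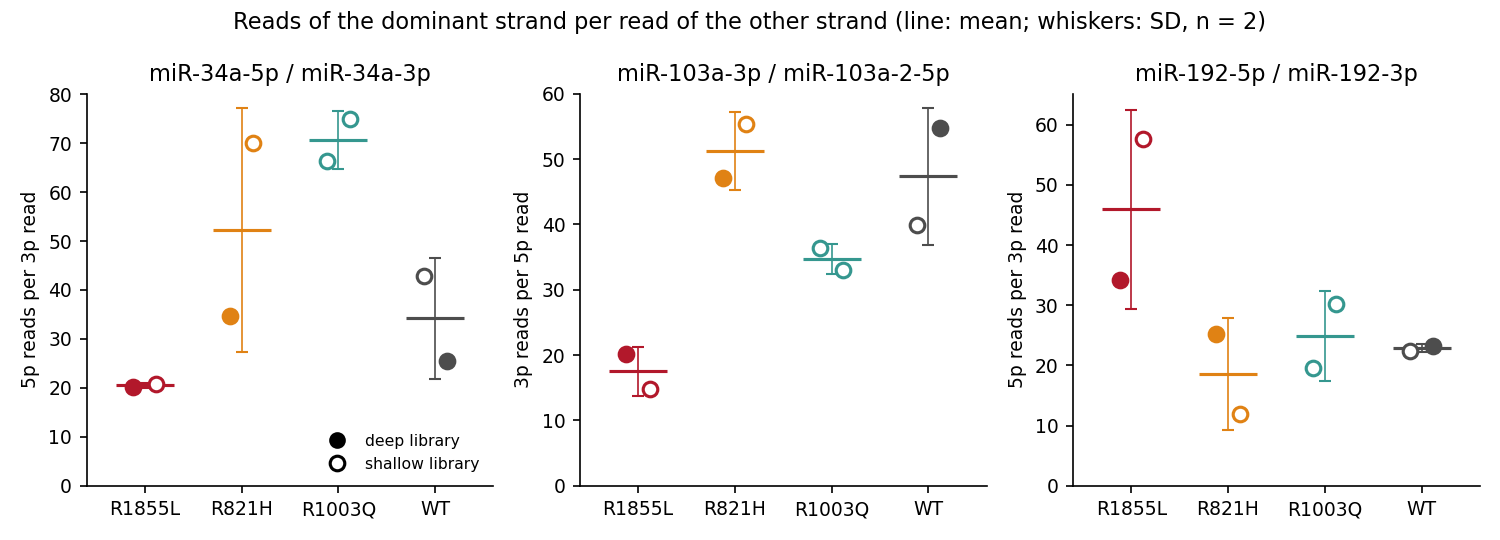
Reads of the dominant strand per read of the other strand (linear axis from 0) for miR-34a, miR-103a and miR-192 in each library; filled points are deep and open points shallow libraries, lines are group means and whiskers SD (n = 2). R1855L holds the 2 lowest ratios for both miR-34a (20.1 and 20.9) and miR-103a (20.2 and 14.8). How many of all strand pairs have both R1855L libraries at an extreme was not counted.

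miR-192 gave 34.2 and 57.7 5p reads per 3p read in R1855L, 25.2 and 11.9 in R821H, 19.6 and 30.1 in R1003Q, and 22.4 and 23.3 in WT. The R1855L libraries were the 2 highest, but the difference from WT of 0.96 did not pass (SE 0.51, limma adjusted p = 0.361), and with a pseudocount of 5 in place of 0.5 it was 0.097. It rests on few 3p reads, with 8 and 1 miR-192-3p reads in R1855L, 20 and 8 in R821H, 8 and 3 in R1003Q, and 8 and 26 in WT. miR-194-3p had 4 and 3 reads in R1855L, 8 and 2 in R821H, 0 and 0 in R1003Q, and 3 and 5 in WT, too few for a test. miR-215-3p was not listed in any library.

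Ratios between related members were set against each other within a library. miR-107 had 0.175 and 0.286 reads per miR-103a-3p read in R1855L, 0.143 and 0.222 in R821H, 0.220 and 0.207 in R1003Q, and 0.232 and 0.153 in WT. The spread within R1855L, R821H and WT was as wide as that between groups, and the test did not separate the 4 groups (exact permutation test of the sum of squares between groups, p = 0.790, adjusted over 3 ratios 0.857, smallest p this design can give 0.00952). The ratio ran from 0.143 to 0.175 in the 3 deep libraries and from 0.207 to 0.286 in the 5 shallow ones, with no overlap. Since the strands differ at 1 base, reads of one may have been counted as the other, which was not tested.

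miR-192-5p had 0.891 and 1.22 reads per miR-194-5p read in R1855L, 1.10 and 0.736 in R821H, 0.769 and 1.00 in R1003Q, and 0.967 and 0.895 in WT. The groups overlapped (exact permutation test, p = 0.857, adjusted 0.857). For miR-215-5p over miR-192-5p, with a pseudocount of 0.5 on each, the ratio was 0.0155 and 0.00578 in R1855L, 0.00484 and 0.00493 in R821H, 0.0210 and 0.0521 in R1003Q, and 0.0289 and 0.00891 in WT (exact permutation test, p = 0.152, adjusted 0.457). With at most 5 reads of miR-215-5p in a library, those ratios rest on few reads.

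**Figure D5:**
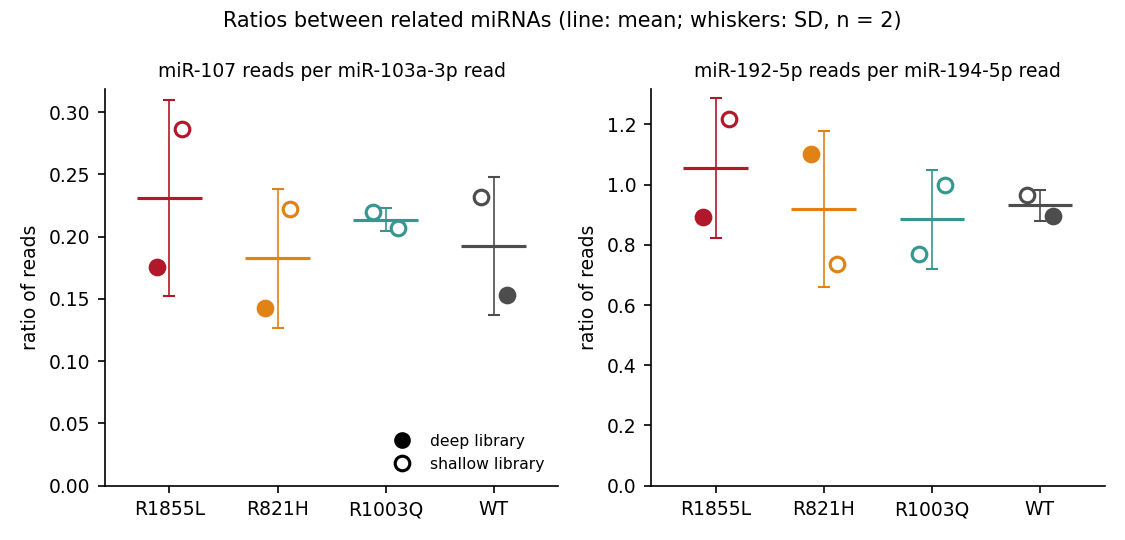
Reads of miR-107 per read of miR-103a-3p and of miR-192-5p per read of miR-194-5p (linear axes from 0) in each library; filled points are deep and open points shallow libraries, lines are group means and whiskers SD (n = 2). In the first panel the deep libraries, from R1855L, R821H and WT, lie at 0.143 to 0.175. The shallow ones, from every group, lie at 0.207 to 0.286.

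The miRNAs with related sequence and the epithelial markers were then set beside the members. miR-34c-5p stood at 49.9 ± 10.7 CPM in R1855L and 41.0 ± 8.57 CPM in WT (SD, n = 2 each), a log2 fold change of 0.29 (SE 0.31), and miR-449a had one of -0.10 (SE 0.26) in R1855L against WT, neither of them called. The 8 epithelial markers, all tested, were named after their values were seen, so their count is a description only. Of the 8, 3 fell in R1855L against WT and 0 rose, against 5.44% of all miRNAs called lower. They were miR-203a-3p, an epidermal miRNA, at 376 ± 24.2 CPM in R1855L and 1142 ± 32.0 CPM in WT (log2 -1.60, SE 0.22, edgeR adjusted p = 0.00830), and miR-429 and miR-141-3p, miR-200 family miRNAs that repress ZEB1 and ZEB2. miR-429 was at 311 ± 35.3 CPM in R1855L and 637 ± 31.0 CPM in WT (log2 -1.04, SE 0.21, edgeR adjusted p = 0.0306). miR-141-3p was at 14.7 and 11.0 CPM in R1855L and at 34.9 and 35.1 CPM in WT (log2 -1.39, SE 0.30, edgeR adjusted p = 0.0422). The other miR-200 family markers were not called, with log2 fold changes of 0.18 for miR-200b-3p (SE 0.29), 0.25 for miR-200c-3p (SE 0.51) and -0.13 for miR-200a-3p (SE 0.23), nor were miR-192-5p and miR-194-5p. The list's median was -0.15, beside 0.13 over all miRNAs, and the part of the epithelial markers in the other results was not tested.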

How the data were processed

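Mature miRNAs were counted from TRIzol-extracted total RNA by AQ-seq, which is designed to reduce the ligation bias of small-RNA libraries, per the labels' protocols. The deposited values are estimated counts, 1 table per library, in which the authors give the reads of each mature miRNA name; the values are not normalised and not pooled, per the file headers and values. Per the submitters' processing notes, cutadapt, BWA and bedtools were used, and the builds hg38 and mm10 are named. How reads were mapped, which miRNA annotation was used and what mm10 was for is not given in the sources used here. In each library 19 to 33 names hold a fraction of a read. Among the members, these were miR-103a-3p and miR-194-5p, which have several hairpins, with 5729.5 and 196.5 reads in WT replicate 1. miR-107, miR-192-5p and miR-215-5p held whole numbers in every library. Whether reads of near-identical strands (miR-103a-3p and miR-107, miR-192-5p and miR-215-5p) were counted under the other name was not tested. No molecular identifiers are described. The intervals on read shares and the floors express counting error alone. Those on fold changes and strand differences come from the edgeR and limma fits and include the spread between libraries.

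From rounded counts, filterByExpr kept 625 of 1818 names, with at least 99.8% of the reads of each library and 6 of the 7 members. edgeR 4.0.16 (R 4.3.3) was run with TMM scaling and a single quasi-likelihood model with group as its term over all 8 libraries. Calls were made at a Benjamini-Hochberg adjusted p under 0.05 over all 625 names. SE values were derived from the fold change and its F statistic. For strand ratios, limma 3.58.1 was fitted to 174 pairs with 80 or more reads on each strand summed over libraries, with a pseudocount of 0.5. Ratios between members were tested with an exact permutation test over 2520 assignments of libraries to groups (Python 3.11.15). The exact intervals on read shares used scipy 1.17.1, and figures used matplotlib 3.10.9. Library totals ran from 462805 to 4269231 reads, and the classes deep and shallow were divided where the log totals lie farthest apart.

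The alternatives tried were DESeq2 1.42.0, scaling by median-ratio size factors or by library totals, no low-count filter or a mean of at least 50 CPM, a fit to the compared groups alone, the replicate block, a depth class term, the log2 library total, a pseudocount of 5, a minimum of 400 reads, and leaving out each library. The miR-103a strand pair and the strand comparisons between mutants were added after seeing the data. Testing scripts were tested on simulated data. The members, the lists and the depth classes were chosen with earlier results of these data known. Besides the members, the text names the other strands of their hairpins, the most abundant names per seed in the RefSeq table, called members of the marker lists, and the 3 names most like miR-34a-5p, miR-192-5p and miR-107. miR-34c-5p, the epithelial markers and the blood, liver, muscle, neuron and fibroblast markers were named after their values were seen. Comparisons with 3 further miRNA lists are not reported here.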

Additional observations from a re-analysis of the deposited data

How the results depend on the processing

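In R1855L against WT 0 members were called as reported, and 1 with DESeq2, with median-ratio size factors, with no filter and with a mean of at least 50 CPM, each time miR-103a-3p, 3 with the depth class term and 2 with the log2 library total. In R821H against R1855L the count was 1, miR-103a-3p, under the same 4 settings and 3 under both depth settings (18.2% and 13.8% of all). Under the 4 settings, median-ratio size factors called 4.16% of 625 names and DESeq2 6.77% of the 576 to which it gave an adjusted p. With no filter 2.2% of 1818 names were called, and at 50 CPM 8.28% of 338. In R1003Q against R1855L the count of members was 1 with DESeq2 (7.75% of the 516 names given an adjusted p), 2 with the depth class term (14.9% of all) and 3 with the log2 library total (13% of all). Those 3 were miR-103a-3p, miR-34a-5p and miR-34a-3p, the last lower in R1003Q (-0.93, edgeR adjusted p = 0.0196). It was 0 in R821H against WT, R1003Q against WT and R1003Q against R821H under every setting with 2 libraries per group. In those 3 comparisons the depth class term called 2.56%, 0.32% and 0% of all miRNAs, and the log2 library total 0.64%, 0% and 0%. The shares of all miRNAs called with the replicate block or with the compared groups alone were not counted. All miRNAs called in R1855L against WT were 5.76% as reported, 2.24% with library totals, 25.9% with the log2 library total, 28.3% with the depth class term, 8.32% with DESeq2 and 5.92% with median-ratio size factors. They were 2.92% of 1818 names with no filter and 8.58% of 338 at 50 CPM. Of the same-numbered libraries, deviations from group means correlated between -0.69 and 0.56. The values of -0.69 and -0.68 set shallow WT replicate 1 against deep R1855L and R821H replicate 1. The value of 0.56 was between those deep libraries. Depth is mixed into this check, so it cannot show whether same-numbered libraries share a batch. With the replicate block 0 members were called in each comparison, and miR-103a-3p in R1855L against WT had -0.999 (edgeR adjusted p = 0.164). In R1855L, leaving out libraries gave log2 fold changes of -1.08 to -0.97 for miR-103a-3p (adjusted p 0.119 to 0.188), -1.11 to -0.45 for miR-107 and -1.02 to -0.23 for miR-34a-5p, whose value was lowest without R1855L replicate 1 and nearest 0 without R1855L replicate 2. The median of all miRNAs moved by -0.12 in R821H with library totals, and by -0.13 in R1855L and -0.15 in R1003Q with no filter. Members near 0 changed sign. In R1855L miR-192-5p had 0.0076 with library totals and 0.057 with the log2 library total, and miR-34a-3p had -0.081 with no filter, -0.018 at 50 CPM and -0.059 with the replicate block. In R821H miR-107 had -0.048 with library totals, -0.028 with no filter and -0.062 with the log2 library total, and miR-194-5p 0.019 with the log2 library total. In R1003Q miR-34a-5p had -0.043 and miR-194-5p -0.095 with no filter, and miR-192-5p 0.064 with the depth class term and 0.074 with the log2 library total. With a pseudocount of 5, the miR-192 strand difference from WT was -0.37 in R1003Q and 0.097 in R1855L. The cause of these sign changes was not tested. Leaving out libraries also spanned 0 in R1855L for miR-192-5p (-0.12 to 0.053) and miR-34a-3p (-0.47 to 0.70). It did so in R821H for miR-107 (-0.40 to 0.45), miR-192-5p (-0.34 to 0.21), miR-194-5p (-0.16 to 0.020) and miR-34a-3p (-0.95 to 0.31), and in R1003Q for miR-107 (-0.31 to 0.17), miR-194-5p (-0.14 to 0.23) and miR-34a-5p (-0.074 to 0.27). Among strand differences it did so for miR-192 in R821H (-0.94 to 0.14), in R1003Q against WT (-0.22 to 0.40) and in R1003Q against R821H (-0.052 to 1.02), and for miR-103a in R821H (-0.35 to 0.10). The miR-103a shift in R1855L had an adjusted p of 0.117 with the replicate block, and the miR-34a difference between R1003Q and R1855L 0.122. With a library left out, the adjusted p of the ratios between members ran from 0.610 to 0.990 for miR-107 over miR-103a-3p and for miR-192-5p over miR-194-5p, and from 0.343 to 0.843 for miR-215-5p over miR-192-5p. Depth limits miR-215-5p, miR-192-3p and miR-194-3p, with at most 26 reads in a library.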

Other observations

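The tested names with a mean of at least 50 CPM whose levels ran most like miR-34a-5p over the 8 libraries were miR-652-3p (r = 0.937), miR-320a (0.929) and miR-151a-5p (0.891), out of 339 names compared by Pearson's r of log2(CPM + 1). Those most like miR-107 were miR-320b (r = 0.938), miR-505-3p (0.931) and miR-99b-3p (0.927), and those most like miR-192-5p were miR-145-5p (r = 0.746), miR-342-3p (0.741) and miR-146b-5p (0.706). The libraries share the depth classes and the groups, so the likeness is a description of these libraries only.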
